A study of Mus musculus with 24 samples.

Results

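The nuclear-encoded genes of the mitochondrial respiratory chain and ATP synthase were examined in RNA of extracellular vesicles from mouse plasma. Genes were taken by symbol: the subunit names Nduf with a letter and number, Sdha to Sdhd, Uqcr, Cox4 to Cox8 and Atp5. This gave 84 of the 21960 genes in the deposited table, of which 37 belonged to complex I, 4 to complex II, 8 to complex III, 18 to complex IV and 17 to complex V. The name pattern leaves out the assembly factors listed further below, the complex III subunit gene Cyc1 and the cytochrome c gene Cycs. Under complex V it takes in Atp5s and Atp5sl, which are not structural subunits of the synthase. Mitochondrially encoded subunits were not analysed here.

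The animals were males of the inbred strain C57BL/6J whose bile duct had been ligated or which had undergone a sham operation. Ligation stops bile flow and is used as a model of cholestasis and of the liver fibrosis that follows it. There were 4 groups of 6 animals: ligation at day 8, sham at day 8, ligation at day 15 and sham at day 15, with 1 library per animal. Groups were taken from the sample titles and the treatment label; the protocol field for treatment names ligation for all 24 samples, sham included. Blood was drawn from the heart, vesicles were precipitated from plasma with a polymer reagent, and no other treatment or genetic change was named. Precipitation does not separate vesicles by their cell of origin, so each library mixed RNA from many tissues, and the tissue label "liver" names no cell type in the tube.

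The respiratory chain passes electrons from NADH through complex I, or from succinate through complex II, to ubiquinone, then through complex III and cytochrome c to oxygen at complex IV. Complexes I, III and IV pump protons across the inner mitochondrial membrane, and complex V, the ATP synthase, uses the returning protons to make ATP. Most subunits are encoded in the nucleus and made in the cytosol, and several complex IV subunits exist as a liver form found in most tissues and a form of heart and skeletal muscle.

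Libraries were shallow. Totals ran from 101733 to 937963 counts, with a median of 340520, and in both day 8 groups the depth was greater in libraries 4 to 6 than in libraries 1 to 3. At day 15, totals ran from 315404 to 465744 in ligation and from 157133 to 351201 in sham libraries. Raw counts given by group below are not scaled for depth. Markers of other cell types moved with the groups. The summed share of 15 hepatocyte genes was 0.129% ± 0.131 of counts in ligated and 0.00823% ± 0.0042 in sham animals at day 8, and 0.944% ± 0.726 and 0.0112% ± 0.0049 at day 15 (mean ± SD, n = 6). Of the 15 genes, 13 were tested. The edgeR test described below called 11 of them higher at day 8 and 13 at day 15, against 2.77% and 3.48% of all tested genes. Erythroid genes, which are mostly hemoglobin, took 11.02% ± 3.4 and 6.98% ± 0.963 at day 8, and 6.43% ± 2.12 and 7.83% ± 2.57 at day 15. The part of these cells in the values below was not tested. All p-values measure the spread between animals.

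Forms of the same subunit could be told apart by their letters, and the longest stretches that 2 forms share exactly are shown because they bear on how far counts can be assigned. The coding regions of the liver and muscle forms Cox6a1 and Cox6a2 were 66.6% identical, with a longest shared run of 12 bases. Cox7a2 and Cox7a1 were 66.9% identical with a longest run of 12 bases, and Cox8a and Cox8b were 68.6% identical with a longest run of 10. The longest run among the 14 pairs compared was 28 bases, between Ndufa4 and its paralog Ndufa4l2, whose transcription rises in low oxygen. The next was 21 bases, between Atp5g1 and Atp5g2, which encode the same subunit c of the membrane ring. Both runs are well under the read length of 75. Each is coding sequence of the GENCODE M21 transcripts, written along the genes' own strand, and starts at coding base 131 of Ndufa4 (minus strand of chromosome 6) and base 391 of Atp5g1.
Ndufa4 and Ndufa4l2: gctgggacagaaagaacaacccagagcc
Atp5g1 and Atp5g2: ctcatcctcttcgccatgtga

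Near copies in other genes are a further limit. Some of these other genes lie at the same locus, such as Gm20538, which overlaps Ndufb8 on the same strand. For 32 of the 84 genes, another gene matched the coding region at 95% identity or more over at least 75 bases, and for 23 of these at least 1 match was a pseudogene. Atp5l had the most, with 9 such copies, of which 8 were pseudogenes and the ninth was the protein-coding gene model Gm5426, with a best identity of 100% and a longest match of 315 bases. Gm5426 had 0 counts in the table. No source used here states how the counting shared reads among such copies, so the counts of these genes are uncertain.

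Transcripts of the respiratory chain were found in every library. Of the 84 genes, 61 had a count in all 24 libraries and 73 in at least 20. The genes together took 0.382% ± 0.0341 of counts (mean ± SD, n = 24), or 36212 counts in all. Their median level was 312 counts per kb of exon over all libraries, a level under which 96.4% of all genes with a known length lay. Olfactory and vomeronasal receptor genes, 1409 genes that blood and liver should lack, had a median of 0.464 counts per kb and a 99th percentile of 3.05. Only Cox7b2, a testis form with 1 count, lay at or under that percentile. The highest receptor gene had 12.5 counts per kb, and Cox4i2 (6.3), Atp5s (5.0) and Cox8c (4.4) also lay under that level. Transcripts of these genes were short, with a median exon length of 927 bases against 2789 for all genes.

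**Figure D1:**
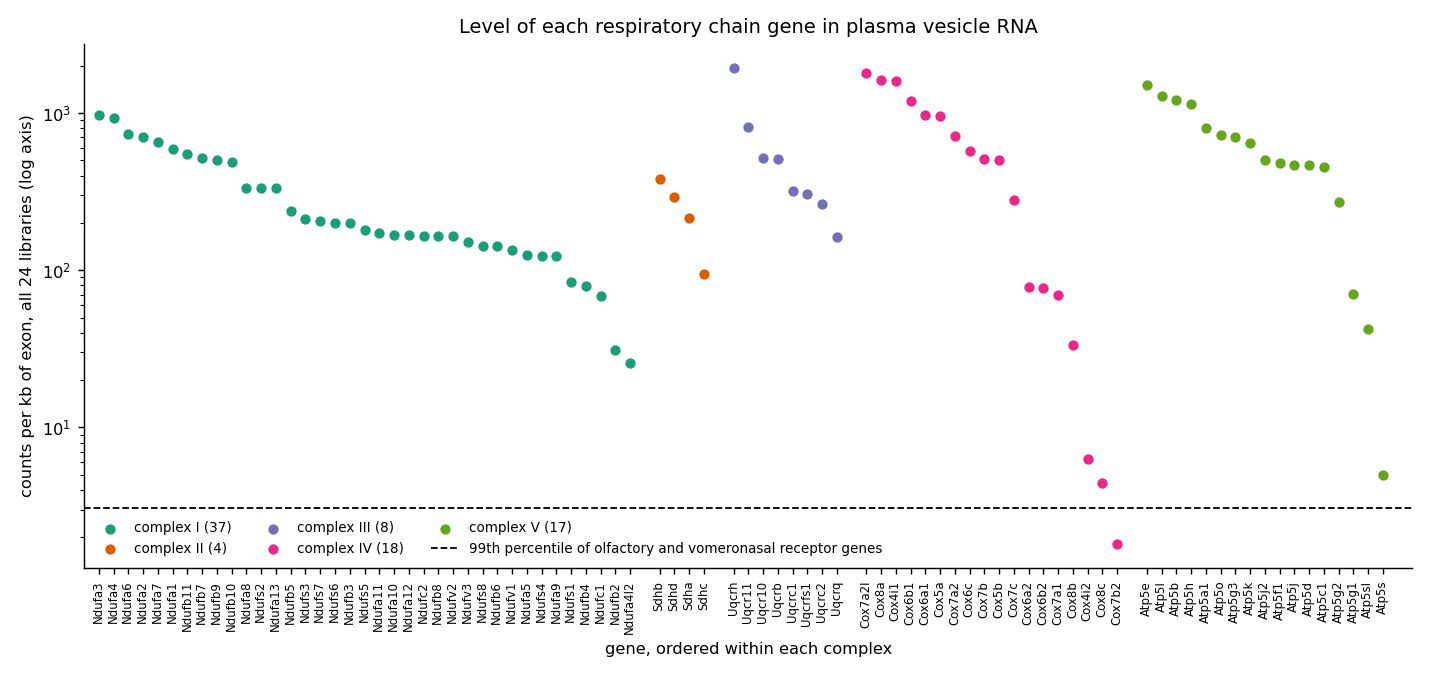
Level of each of the 84 genes in counts per kb of exon, summed over all 24 libraries, on a log axis, ordered within complexes I to V. The dashed line is the 99th percentile of 1409 olfactory and vomeronasal receptor genes (3.05 counts per kb), and only Cox7b2 lies under it.

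Complex V held the largest part of these counts, 33.6%, followed by complex I with 27.6%, complex IV with 23.9%, complex III with 10.1% and complex II with 4.74%. Per gene, median levels were 505 counts per kb in complex IV, 504 in complex V, 413 in complex III, 252 in complex II and 181 in complex I. The makeup was similar in size in all groups. Complex V made up 33.7% ± 1.63 of the members' counts in ligated and 33.6% ± 1.89 in sham animals at day 8, and 34.2% ± 1.0 and 32.9% ± 2.88 at day 15 (mean ± SD, n = 6). Complex I made up 27.5% ± 2.62, 27.5% ± 1.73, 26.9% ± 1.02 and 28.0% ± 1.44 in the same order, so the difference between ligation and sham was smaller than the SD of at least one group on each day for both complexes.

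In complex I, the accessory subunit genes Ndufa3 and Ndufa4 were highest, with 968 and 930 counts per kb. Ndufa4 is grouped here by its name, though its protein is now counted as a subunit of complex IV. Ndufa3 overlaps Tfpt on the opposite strand, and whether the counting used strand is not given. The lowest was Ndufa4l2 with 25.7 counts per kb and counts in 12 libraries. Of the 37 genes, 25 had a count in every library.

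All 4 genes of complex II, which also works in the citric acid cycle as succinate dehydrogenase, had counts in every library. The iron-sulfur subunit gene Sdhb had 383 counts per kb, the membrane anchor gene Sdhd 291, the flavoprotein gene Sdha 214 and the other anchor gene Sdhc 94.3. In complex III the hinge protein gene Uqcrh was the highest of all 84 genes, with 1940 counts per kb, and Uqcr11, a small accessory subunit gene, had 814.

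In complex IV, Cox7a2l had 1809 counts per kb, Cox8a 1618 and Cox4i1 1604. Cox7a2l encodes a protein that joins complexes III and IV into supercomplexes, and C57BL/6 mice carry a shortened form of it. In complex V, Atp5e, the epsilon subunit of the central stalk, had 1515 counts per kb and Atp5l, subunit g of the membrane part, had 1289. The catalytic subunit gene Atp5b (named after its values were seen) gave the most counts of any member, 2330. Atp5s and Atp5sl, which carry the name but are not structural subunits of the synthase, had 5.0 and 42.3 counts per kb.

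The muscle forms of complex IV stood far under the forms used in most tissues. Promoter sequences of a high and a low pair are shown as examples, picked by no fixed rule. The high gene Uqcrh belongs to complex III and is no counterpart of a muscle form. Windows from 250 bases before to 50 after the start were found for 69 of the 84 genes in the RefSeq promoters of GRCm38.p6, 75 windows in all. On both strands they were searched for CATGCGC, the core of sites of NRF1, for CCGGAAG, a core of sites of ETS factors such as NRF2 (GABP), and for AAGATGG, the core of YY1 sites. All of these factors are known to bind promoters of respiratory genes. CATGCGC was in 17.3% of the 75 windows, against 3.91% of all 32851 windows and 6.57% of those of the genes tested below. For CCGGAAG the shares were 21.3%, 8.86% and 15.4%, and for AAGATGG 17.3%, 6.34% and 7.09%. At least 1 of these was in 45.3% of the members' windows and in 25.8% of those of tested genes, and the medians of CpG dinucleotides were 19 and 22. These are matches of letters and not sites. Below are the 100 bases before the RefSeq start, 5′ to 3′ on the gene's strand, with matches in capitals: Uqcrh at chr4:116075071-116075170 (minus), Cox6a1 at chr5:115348959-115349058 (minus), Cox7a1 at chr7:30184071-30184170 (plus) and Cox8b at chr7:140900447-140900546 (minus).
Uqcrh: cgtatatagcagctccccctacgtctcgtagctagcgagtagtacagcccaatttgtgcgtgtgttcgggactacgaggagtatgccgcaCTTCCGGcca
Cox6a1: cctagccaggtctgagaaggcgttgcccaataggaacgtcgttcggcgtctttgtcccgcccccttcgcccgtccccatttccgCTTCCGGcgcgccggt
Cox7a1: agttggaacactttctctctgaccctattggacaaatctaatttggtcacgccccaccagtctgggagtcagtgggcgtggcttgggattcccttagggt
Cox8b: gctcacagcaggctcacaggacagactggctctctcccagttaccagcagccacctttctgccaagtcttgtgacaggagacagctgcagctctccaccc
The capitals in Uqcrh and Cox6a1 are CCGGAAG read on the other strand, and the window of Cox6a1 also held CATGCGC on both strands farther upstream. The whole 300-base window held 15 CpG in Uqcrh, 32 in Cox6a1, 7 in Cox7a1 and 2 in Cox8b. Neither muscle form's window held any of the motifs. Of the 13 windows of complex IV, 5 held at least 1 motif. Whether motifs go with level was not tested.

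The first comparison asked whether the summed share of these transcripts differed between ligated and sham animals. The 84 genes took 0.350% ± 0.0388 of counts in ligated and 0.404% ± 0.0273 in sham animals at day 8. At day 15 the values were 0.373% ± 0.0239 and 0.403% ± 0.0094 (mean ± SD, n = 6). The lowest, median and highest libraries had 0.277%, 0.360% and 0.384% in the ligation group and 0.377%, 0.394% and 0.439% in the sham group of day 8. At day 15 they had 0.346%, 0.366% and 0.406%, and 0.390%, 0.403% and 0.416%. Ligation libraries thus lay toward the lower end on both days, and the groups overlapped on both. All 5 complexes had a lower mean share after ligation on both days, from 0.0966% against 0.111% for complex I to 0.0166% against 0.0195% for complex II at day 8. Since members were chosen with results known, the sums were given no test.

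A share depends on what else is in the library. The gene model of Lars2 and the hemoglobin genes took a large and variable part of the counts, Lars2 alone 47.1% ± 4.19 (n = 24). Without them the members' share was 0.791% ± 0.182 in ligated and 0.895% ± 0.040 in sham animals at day 8, and 0.818% ± 0.0997 and 0.928% ± 0.0563 at day 15. Within the day 8 libraries numbered 1 to 3 the shares of all counts were 0.334% ± 0.0511 and 0.400% ± 0.0322, and in those numbered 4 to 6 they were 0.365% ± 0.0208 and 0.408% ± 0.028 (n = 3). Relative to the other genes tested, on the scale of the fit below, the median member was not lower. The shares and the fitted medians therefore differ in sign.

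**Figure D2:**
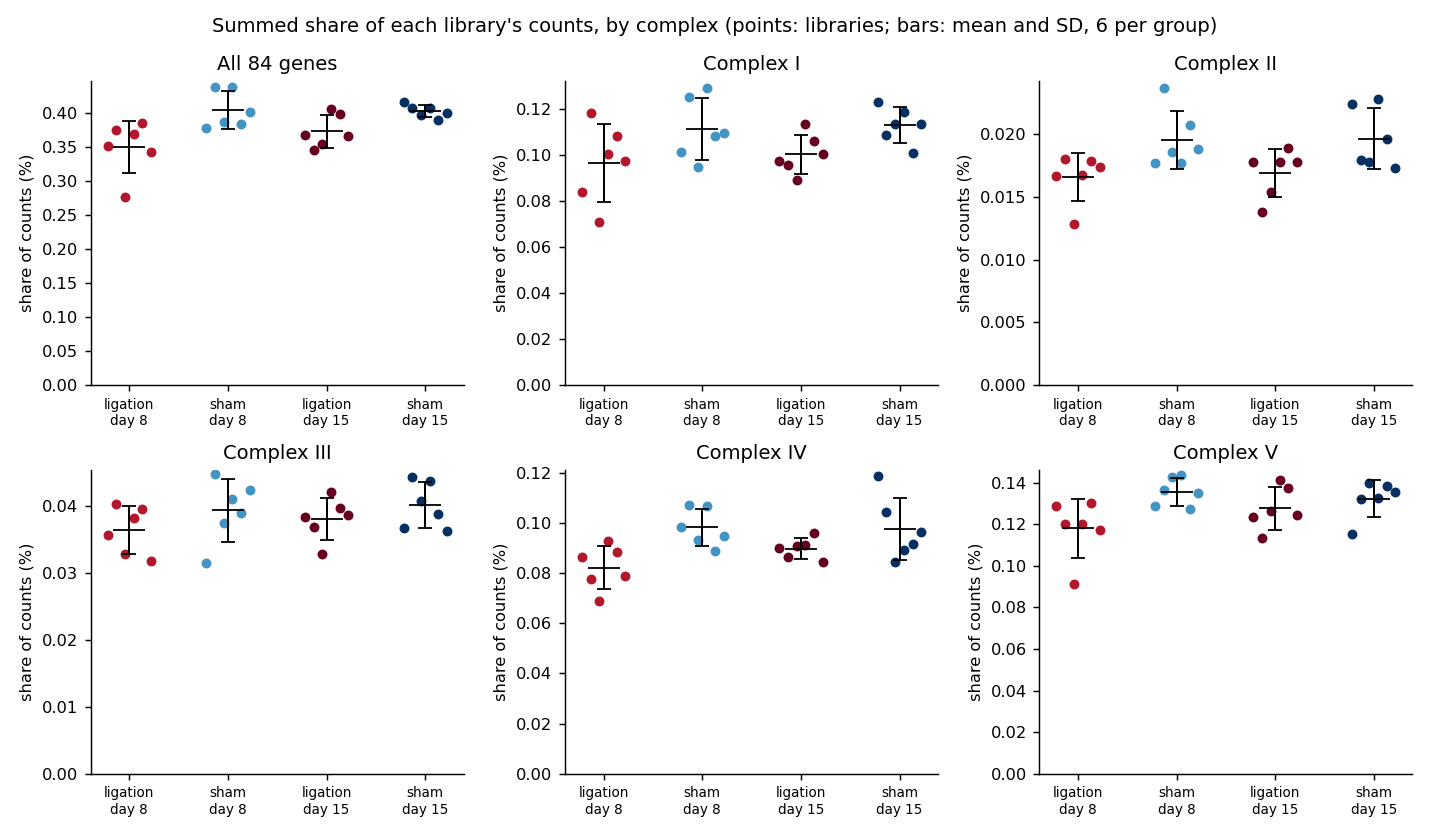
Share of each library's counts, in percent, taken by all 84 genes and by complexes I to V in the 4 groups. Points are libraries and bars are the mean and SD of 6. Ligation means are under the sham means in every panel on both days, with overlapping libraries: 0.350% against 0.404% for all genes at day 8 and 0.373% against 0.403% at day 15.

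Gene by gene, 59 of the 84 members passed the filter on low counts, namely 21 of 37 in complex I, 4 of 4 in complex II, 8 of 8 in complex III, 11 of 18 in complex IV and 15 of 17 in complex V. Levels by library are given as normalised CPM, which is CPM computed on the TMM-scaled library size, and differences as log2 fold changes of ligation against sham with standard errors (SE). At day 8, 0 of 59 members were higher and 0 lower at an adjusted p under 0.05 (edgeR's quasi-likelihood test, Benjamini-Hochberg over 4112 genes). Over all tested genes 2.77% were higher and 0.365% lower. At an unadjusted p under 0.05, 2 members were higher and 0 lower, against 9.7% and 4.6% of all genes, and DESeq2 called 0 (3.94% of all genes higher and 0.584% lower). Positive changes were found for 35 members and negative ones for 24, with a median of 0.04 against 0.02 for all tested genes. By complex, medians at day 8 ran from 0.02 in complex I to 0.10 in complex II. The median was 0.17 in the libraries numbered 1 to 3 alone (58 members tested) and -0.06 in those numbered 4 to 6 alone (65 members tested), with 0 called in both. The direction of the small median at day 8 was thus not shared by the shallow and the deep libraries.

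Intervals were narrow enough to bound most members. At day 8 the 95% interval of 55 of 59 members lay wholly within a change of 1 on the log2 scale in either direction, and the median interval reached 0.51 to each side. The exceptions were Uqcr11, Uqcrq, Uqcr10 and Atp5g2. The abundant complex IV members had close means: Cox7a2l had 229.8 ± 47.7 normalised CPM in ligated and 229.0 ± 24.3 in sham animals, and Cox4i1 150.8 ± 38.3 and 131.7 ± 4.7 (SD, n = 6).

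The members with the smallest p at day 8 were small subunits of complexes V and III. Atp5e had 63.0, 81.4 and 110.9 normalised CPM in the lowest, median and highest ligation libraries and 33.8, 58.6 and 76.3 in the sham libraries. The log2 fold change was 0.52 (SE 0.20, adjusted p = 0.209, edgeR). Uqcr11 had 28.7, 45.2 and 90.8 normalised CPM in ligated and 19.1, 23.0 and 50.9 in sham animals (log2 fold change 0.69, SE 0.28, adjusted p = 0.224). In both genes ligation libraries lay mostly above sham libraries, and the groups overlapped. Uqcr11 passed the edgeR threshold in 1 of 12 fits that each left out 1 library. That fit was without the sham library numbered 6 (log2 fold change 1.02, adjusted p = 0.0381). Across these fits adjusted p ran up to 0.416 and the log2 fold change down to 0.51. Uqcr11 also has 2 pseudogene copies. Ndufa4 came next among positive changes (0.40, SE 0.21, adjusted p = 0.409). The smallest p among negative changes belonged to Ndufa10, an accessory subunit of complex I (-0.36, SE 0.25, adjusted p = 0.541), Cox6a1 (-0.22, SE 0.19, adjusted p = 0.628) and Sdhb (-0.25, SE 0.22, adjusted p = 0.690).

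At day 15 members of the respiratory chain did not pass the edgeR test either. Of 59, 0 were higher and 0 lower by edgeR, where 3.48% of all tested genes were higher and 1.07% lower. At an unadjusted p under 0.05, 2 were higher and 1 lower, against 9% and 9.07% of all tested genes, and DESeq2 called 1, Atp5l, as higher (adjusted p = 0.0256), among 3.67% of all genes higher and 1.53% lower. The median was 0.13 against -0.02 for all tested genes, with 42 members positive and 17 negative. The intervals of 52 of 59 members lay within a change of 1 on the log2 scale. By complex, medians ran from 0.08 in complex II to 0.27 in complex V.

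Atp5l was the member nearest to a change at day 15 (ENSMUSG00000038717, GRCm38 chr9:44912557-44920742, minus strand, a protein-coding gene). Its ligation libraries had 110.9, 117.6 and 136.4 normalised CPM and its sham libraries 52.1, 66.9 and 111.1. Of the 6 sham libraries, 5 lay under every ligation library, and the sham library numbered 6, at 111.1, lay just inside the ligation range. The log2 fold change was 0.74 (SE 0.24, adjusted p = 0.0708, edgeR), and without that library it was 0.91 (adjusted p = 0.0316). Of the 12 fits that each left out 1 library, only this 1 called Atp5l, and adjusted p ran up to 0.161. At day 8 the ligation libraries had 43.1, 69.9 and 115.0 and the sham libraries 9.56, 60.1 and 77.3 normalised CPM (log2 fold change 0.34, SE 0.24, adjusted p = 0.571), and these groups overlapped. The sham value of 9.56 rested on 1 count in the shallowest library.

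The ubiquinone-binding accessory subunit gene Uqcrq of complex III had 28.9, 38.0 and 72.6 normalised CPM in ligated and 6.18, 21.7 and 38.5 in sham animals of day 15 (log2 fold change 0.81, SE 0.36, adjusted p = 0.218). The groups overlapped, with the highest value in ligation library 5. Atp5o, whose protein links the peripheral stalk to the catalytic head, came next (log2 fold change 0.46, SE 0.23, adjusted p = 0.295). It lies at GRCm38 chr16:91925214-91931687 and shares its locus with another gene model of the same symbol. On the negative side, Ndufs3, a core subunit gene of the arm of complex I that reaches into the matrix, had 7.21, 13.9 and 33.7 normalised CPM in ligated and 18.5, 32.3 and 50.1 in sham animals. Its log2 fold change was -0.95 (SE 0.36, adjusted p = 0.139), and 5 of 6 ligation libraries lay under 5 of 6 sham libraries. These values rest on 2 to 13 counts per library, and Ndufs3 overlaps Kbtbd4 on the opposite strand and has 1 pseudogene copy. At day 8 Ndufs3 had 25.9 ± 6.08 normalised CPM in ligated and 21.2 ± 11.2 in sham animals. Ndufa10 again had a negative value of -0.36 (SE 0.26, adjusted p = 0.501).

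Atp5g2 had the most negative estimate at day 15, -1.34 (SE 0.79, adjusted p = 0.396), and the largest spread of the members. Its biological coefficient of variation, the fitted spread between animals, was 91.8%, against a median of 18.7% for the 59 members and 24.1% for all tested genes. Counts were 0 in 7 of 24 libraries, and the other libraries had between 6.39 and 98.8 normalised CPM. Its paralogs Atp5g1 and Atp5g3, which encode the same mature protein, had a count in all 24 libraries. Atp5g2 also has 2 pseudogene copies, with a best identity of 100% and a longest match of 441 bases, the length of its coding region. When no filter on low counts was used, the test called it lower at day 15 (adjusted p = 0.0446).

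**Figure D3:**
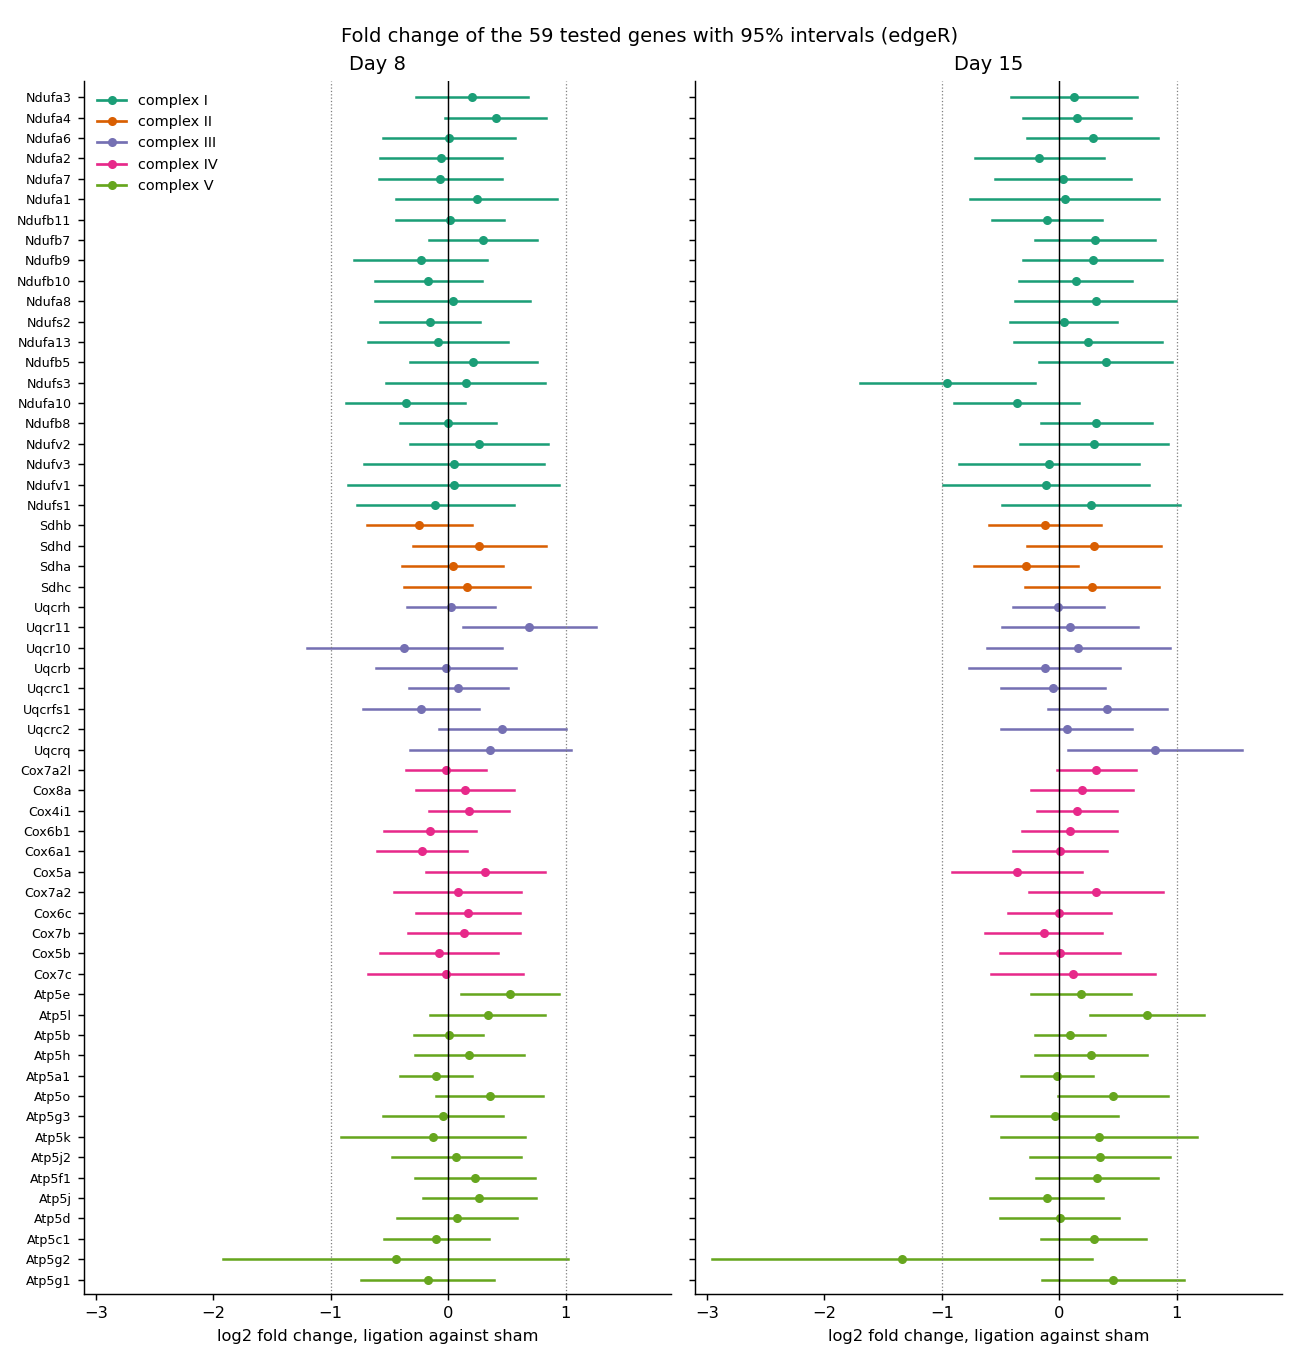
Log2 fold change of ligation against sham at day 8 (left) and day 15 (right) for the 59 tested members, grouped by complex, with 95% intervals from edgeR. Dotted lines mark changes of 1 on the log2 scale. Most intervals lie between them and cross 0; Atp5l, Uqcrq and Ndufs3 at day 15 and Atp5e and Uqcr11 at day 8 do not cross 0 and did not pass the adjusted threshold.

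Averaged over both days, 1 member was called. Atp5l was higher in ligated animals (log2 fold change 0.54, SE 0.17, adjusted p = 0.0374, edgeR), and DESeq2 called it too (0.52, SE 0.16, adjusted p = 0.0158; 7.37% of all genes higher and 4.06% lower). With 1 of 59 higher and 0 lower, the members' share of calls was under that of all tested genes, of which 7.1% were higher and 3.5% lower. At an unadjusted p under 0.05, 4 members were higher and 0 lower, against 13.8% and 10.4% of all tested genes. The call of Atp5l depended on the libraries used: it held in 13 of 24 fits that each left out 1 library, and adjusted p ran from 0.0182 to 0.0790. It was lost without any of the ligation libraries 2, 3 or 4 or the sham libraries 4 or 5 of day 8, and without any of the ligation libraries 4 or 5 or the sham libraries 1, 3, 4 or 5 of day 15, while the log2 fold change stayed between 0.48 and 0.62. It was also lost when no filter on low counts was used (0.52, adjusted p = 0.112). In complex V as a whole, 12 of 15 tested members had positive values, with a median of 0.10. Atp5l shares sequence with 9 other genes, as given above, and overlaps Gm30934 on the opposite strand.

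**Figure D4:**
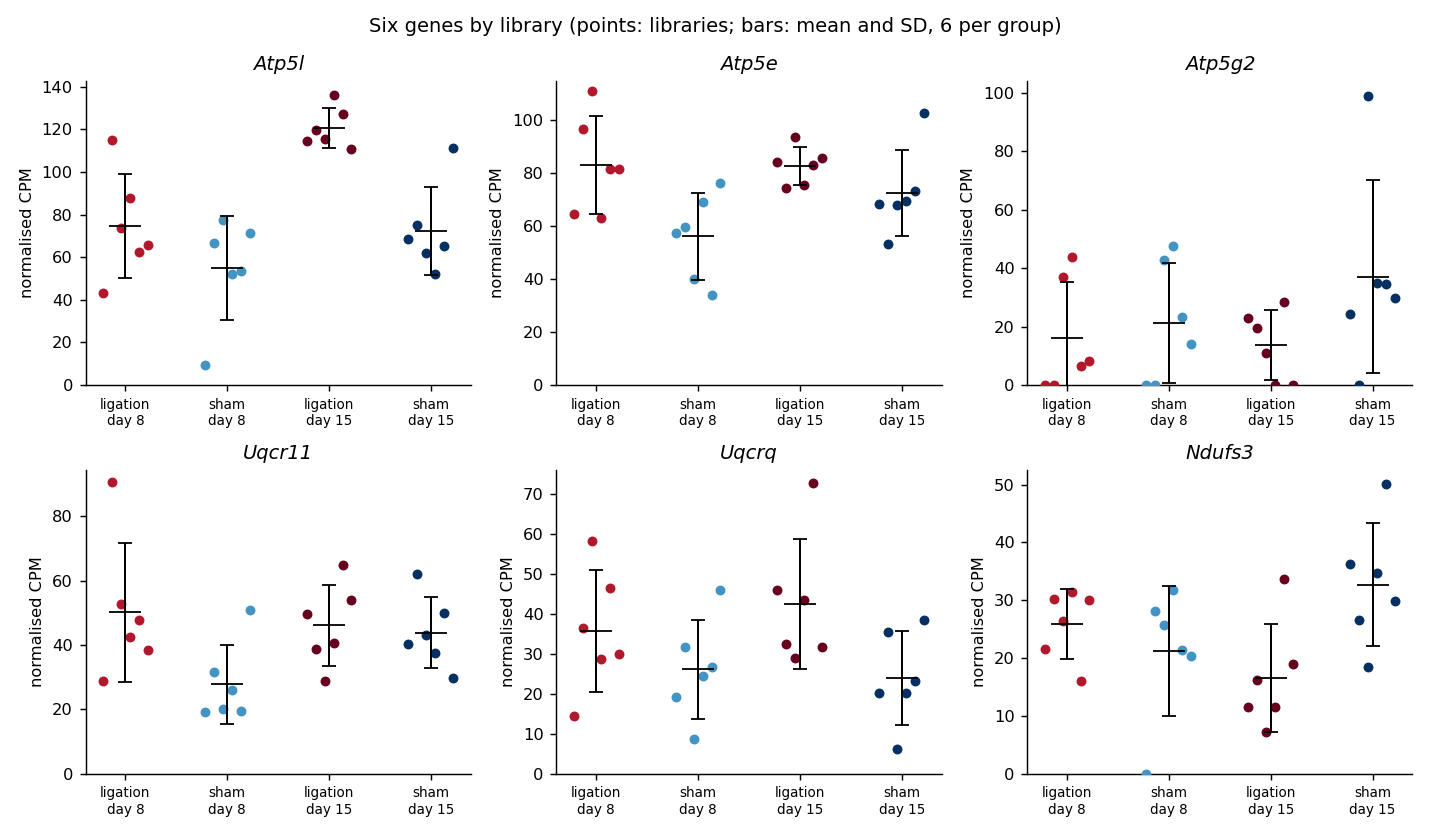
Normalised CPM by library for Atp5l, Atp5e, Atp5g2, Uqcr11, Uqcrq and Ndufs3 in the 4 groups; points are libraries and bars the mean and SD of 6. For Atp5l at day 15 the ligation libraries lie between 110.9 and 136.4 and 5 of the 6 sham libraries lie under them.

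No member's ligation libraries lay wholly above or wholly below its sham libraries. The count was 0 of 59 at each day, where 1.97% of all tested genes were wholly higher and 0.34% wholly lower at day 8, and 2.38% and 0.803% at day 15. A difference of the ligation effect between days was called by edgeR for 0 of 59 members and 0% of all tested genes (smallest adjusted p of a member 0.841). At an unadjusted p under 0.05 there were 0 with a more positive and 1 with a more negative effect at day 15, Ndufs3, against 2.12% and 3.57% of all genes, and DESeq2 called 0 (0.0243% of all genes higher and 0% lower). Intervals of this difference were wider, and those of only 34 of 59 members lay within 1 on the log2 scale, so differences between days were poorly bounded.

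Over time within the ligated animals, 0 members were called at day 15 against day 8, where 2.26% of all tested genes were higher and 2.09% lower. At an unadjusted p under 0.05, 4 were higher and 1 lower, against 7.49% and 9.68%. Uqcr10, a small accessory subunit gene of complex III (named after its values were seen), had 0, 15.7 and 22.4 normalised CPM in the lowest, median and highest ligation libraries at day 8 and 20.8, 37.7 and 50.7 at day 15. The log2 fold change was 1.21 (SE 0.39, adjusted p = 0.0799). The sham libraries had 0, 23.4 and 26.7 at day 8 and 8.05, 37.4 and 47.0 at day 15 (adjusted p = 0.535). For Atp5l the log2 fold change over the same interval was 0.70 (SE 0.23, adjusted p = 0.0859). DESeq2 called both Uqcr10 (1.26, adjusted p = 0.0398) and Atp5l (0.74, adjusted p = 0.024), among 2.07% of all genes higher and 1.85% lower. In sham animals 0 of 59 members were called between days, with 0 at an unadjusted p under 0.05 (4.64% of all genes higher and 6.03% lower) and 0 by DESeq2 (0.0243% of all genes higher and 0.0973% lower), and edgeR called 0% of all tested genes. Platelet markers were scarcer at day 15: their 10 genes took 0.419% ± 0.319 and 0.340% ± 0.228 of counts in the ligation and sham groups of day 8, and 0.138% ± 0.0277 and 0.144% ± 0.0527 at day 15, and 5 of 10 were called lower with time in ligated and 0 of 10 in sham animals, where all 10 were lower at an unadjusted p under 0.05. Their part in the time comparisons was not tested.

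The 4 genes of succinate dehydrogenase, all tested, had close levels in ligated and sham animals. Sdha had a mean of 73.3 ± 15.6 normalised CPM in ligated and 72.9 ± 24.2 in sham animals at day 8, and 63.5 ± 11.9 and 77.0 ± 12.2 at day 15 (SD, n = 6). Sdhb had 46.8 ± 12.5 and 57.2 ± 14.3 at day 8, and 44.2 ± 9.51 and 46.9 ± 12.5 at day 15. For Sdhc the means were 38.1 ± 10.7 and 31.1 ± 6.47, then 36.6 ± 14.9 and 30.1 ± 7.24. For Sdhd they were 40.5 ± 16.4 and 29.2 ± 11, then 53.2 ± 19.0 and 43.5 ± 12.7. Differences were close to or under the SD of a group for each gene on each day, and none passed the test. Uqcrh, the highest gene per kb, had 130.6 ± 28.5 and 124.5 ± 21.5 at day 8 and 111.2 ± 21.4 and 112.3 ± 27.4 at day 15. In complex I, Ndufa3 had 69.9 ± 19.3 and 58.3 ± 19.8 normalised CPM at day 8 and 50.3 ± 12.9 and 46.2 ± 14.1 at day 15. Ndufa4 had 75.9 ± 11.4 and 53.4 ± 22.1, then 62.5 ± 7.93 and 56.9 ± 12.0, so its ligation mean was higher at day 8 by about the sham SD, and it did not pass the test (adjusted p = 0.409). Ndufa10 was lower in ligated animals on average on both days, without passing the test on either, with 35.8 ± 11.02 and 45.5 ± 16.9, then 35.5 ± 8.38 and 44.5 ± 12.7.

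Tissue forms of complex IV were read next, since 3 subunits of this complex are found in the table in both a liver and a muscle form. The forms found in most tissues dominated. Cox6a1, Cox7a2 and Cox8a, called liver forms, had 590, 608, 431 and 291 counts in the groups ligation day 8, sham day 8, ligation day 15 and sham day 15. The heart and muscle forms Cox6a2, Cox7a1 and Cox8b had 19, 33, 14 and 36. None of the muscle forms passed the filter on low counts.

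The liver forms summed to 191 ± 18.8 CPM of all counts in the table, without scaling, in ligated and 230 ± 26.1 in sham animals at day 8, and to 193 ± 20.5 and 200 ± 40.8 at day 15 (SD, n = 6). For the genes singly, Cox6a1 had log2 fold changes of -0.22 (SE 0.19) at day 8 and 0.01 (SE 0.19) at day 15, Cox7a2 had 0.08 (SE 0.27) and 0.31 (SE 0.28), and Cox8a had 0.14 (SE 0.20) and 0.19 (SE 0.21). None passed the test. Cox6a1 had 30.3, 60.4 and 65.9 normalised CPM in the lowest, median and highest ligation libraries at day 8 and 47.8, 72.3 and 77.4 in the sham libraries. On each day 0 of these 3 forms was called. Over all tested genes edgeR called 2.77% higher and 0.365% lower at day 8, and 3.48% and 1.07% at day 15. The part of hepatocytes in these values was not tested.

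The muscle forms summed to 6.04 ± 7.4 CPM on the same scale in ligated and 19.5 ± 24.3 in sham animals at day 8. The sham mean rested on library 1, with 7 counts, and was 9.59 ± 2.89 (n = 5) without it; the ligation mean was 3.68 ± 5.14 (n = 5) without ligation library 1 (both left out after the values were seen). At day 15 the sums were 6.42 ± 2.48 and 24.4 ± 21.01. The lowest, median and highest ligation libraries had 0, 3.87 and 17.9 at day 8 and 3.17, 6.76 and 9.05 at day 15. Sham libraries had 5.6, 10.2 and 68.8 at day 8 and 0, 21.3 and 53.8 at day 15. The largest sham values came from the libraries numbered 1 on each day, and the groups overlapped on both days. As a percentage of both kinds of form, pooled over the 6 libraries, muscle forms made up 3.12% in ligated (exact 95% interval 1.89 to 4.83) and 5.15% in sham animals (3.57 to 7.15) at day 8. At day 15 they made up 3.15% (1.73 to 5.22) and 11.01% (7.83 to 14.9). These intervals cover counting error and not the spread between animals.

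Cox7a1 had 3 counts in ligated and 12 in sham animals at day 8, and 6 and 16 at day 15. In the fit without a filter its log2 fold change over both days was -1.76 (SE 0.63, adjusted p = 0.073, edgeR). Cox6a2 had 13 and 18 counts at day 8 and 7 and 15 at day 15, with -1.02 (SE 0.53, adjusted p = 0.299), and Cox8b had 3, 3, 1 and 5, with -0.95 (SE 0.82, adjusted p = 0.656). All 3 estimates were negative and none passed the test. Of the 25 members under the filter, 0 were called in that fit in either day or in their mean; over both days 3 had an unadjusted p under 0.05, all lower (Cox4i2, Cox7a1 and Ndufb3), and the median was -0.02. Over the 18710 genes of that fit, 1.41% were called higher and 0.187% lower at day 8, 2.96% and 0.722% at day 15, and 4.37% and 1.2% over both days, where 13% and 4.58% had an unadjusted p under 0.05.

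Cardiac muscle markers were also lower on average in ligated animals. Their 12 genes summed to 0.0125% ± 0.00795 of counts in ligated and 0.0307% ± 0.0137 in sham animals at day 8 (ranges 0.00322% to 0.0238% and 0.0129% to 0.0474%). At day 15 the sums were 0.0198% ± 0.0178 and 0.0429% ± 0.0294 (ranges 0.00849% to 0.0536% and 0.00764% to 0.0964%). Of the 12, 5 passed the filter. Of these, edgeR called 2 lower at day 8 and 0 at day 15, against 0.365% and 1.07% of all tested genes. Over both days it called 3 lower, against 3.5% of all tested genes. These were Actc1, Pln and Myl2, genes of cardiac actin, a calcium pump regulator and a myosin light chain. The atrial peptide gene Nppa was at 0 counts in both day 8 groups, and Nppb and Myl7 were at 0 in the sham group of day 8. Skeletal muscle markers, 10 genes of which 0 passed the filter, had 31 and 73 raw counts at day 8 and 36 and 52 at day 15, not scaled for depth. Myh1 and Myh2 were at 0 in the ligation group of day 8, Pvalb in the sham group of day 8 and Tnni2 in the sham group of day 15. The part of these cells in the muscle forms was not tested. In bulk libraries such as these, fewer vesicles from a tissue and less RNA of a gene per vesicle cannot be told apart.

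**Figure D5:**
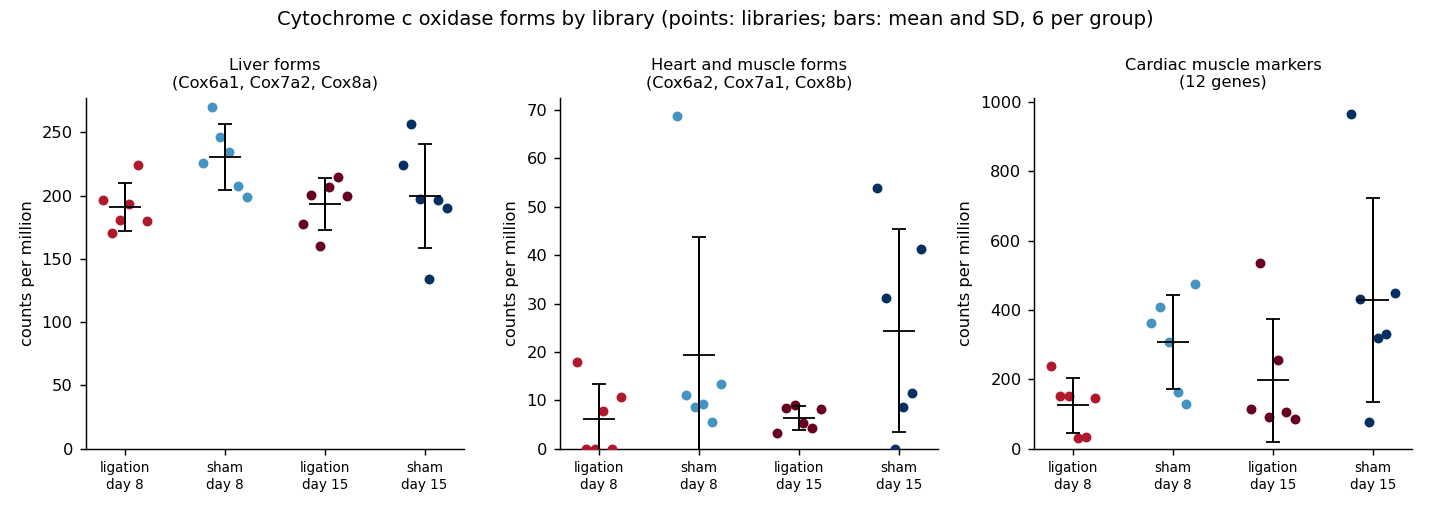
Level in CPM (unscaled) by library for the liver forms (Cox6a1, Cox7a2, Cox8a), the heart and muscle forms (Cox6a2, Cox7a1, Cox8b) and 12 cardiac muscle markers in the 4 groups; points are libraries and bars the mean and SD of 6, drawn down to 0 only. Muscle forms average 6.04 against 19.5 at day 8 (9.59 without sham library 1, 3.68 without ligation library 1) and 6.42 against 24.4 at day 15, with overlapping libraries, and the markers are lower on average after ligation on both days.

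Forms known from other organs were scarce. Cox4i2, a form of lung, had 5 counts in 3 libraries, all from sham animals, whereas Cox4i1 had 1227. The level of Cox4i2 per kb lay within the range of the olfactory and vomeronasal receptor genes. Of the testis forms, Cox6b2 had 57 counts in 19 libraries, Cox8c had 2 counts in 1 library and Cox7b2 1 count. Their common counterparts Cox6b1, Cox8a and Cox7b had 736, 890 and 508. Cox6b2 was thus the only testis form above 3 counts, with 21, 23, 9 and 4 counts in ligation day 8, sham day 8, ligation day 15 and sham day 15. Cox6b1 had 71.4 ± 20.3 and 83.4 ± 14.2 normalised CPM at day 8 and 87.4 ± 16.5 and 81.6 ± 14.1 at day 15, and Cox7b had 56.9 ± 9.2 and 49.1 ± 18.9, then 56.0 ± 13.9 and 61.5 ± 18.2. For both the differences were under the larger SD.

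The other genes of the pathway were read from 8 lists (assembly factors of complexes I, II with III, IV and V, respiratory genes outside the name pattern, transcription of respiratory genes, the citric acid cycle, and mitochondrial carriers and import), and 26 of their 88 genes passed the filter. Assembly factors were scarce, with 2 of 50 genes tested: 0 of 15 for complex I, 1 of 10 for complexes II and III, 1 of 21 for complex IV and 0 of 4 for complex V. At day 8, 0 of the 26 were called by edgeR, in a comparison where 2.77% of all tested genes were higher and 0.365% lower. Of the 26, 0 had an unadjusted p under 0.05, against 9.7% of all tested genes higher and 4.6% lower. At day 15, 1 of the 26 was higher and 0 lower, against 3.48% and 1.07% of all tested genes, so the share called was close to that of all genes. That gene was Slc25a5, an ADP/ATP carrier of the inner membrane, which exchanges the ATP made by complex V for ADP (log2 fold change 0.76, SE 0.22, adjusted p = 0.0436). The call of Slc25a5 held in 3 of 12 fits that each left out 1 library (adjusted p from 0.0192 to 0.106) and was lost without ligation library 1, 4, 5 or 6 or sham library 1, 2, 3, 4 or 5. Tomm20, a receptor of the import channel of the outer membrane, was higher at day 15 than at day 8 in ligated animals (0.91, SE 0.24, adjusted p = 0.0317). That call held in 4 of 12 such fits (adjusted p from 0.0136 to 0.0889) and was lost without library 2, 4, 5 or 6 of either day. In the citric acid cycle 0 of 10 tested genes were called on either day, with 0 at an unadjusted p under 0.05. Of 77 tested genes of cytosolic ribosomal proteins, which are also short and abundant, edgeR called 0 on either day. At an unadjusted p under 0.05, 2 were lower at day 8 and 3 higher at day 15. Over all tested genes these shares were 4.6% lower at day 8 and 9% higher at day 15.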

How the data were processed

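The deposited values are expected counts per gene, whole numbers in the file; STAR and RSEM are named in the submitters' processing notes, without versions. Those notes name hg38 although identifiers are mouse Ensembl genes, so coordinates were taken by identifier from GENCODE M21 (GRCm38). RSEM estimates need not be whole, and no source used here states who rounded the deposited counts. Per the labels' protocols, library preparation skipped depletion of ribosomal RNA and selection of poly(A) RNA, and reads were paired, 75 bases each.

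Counts were filtered with filterByExpr (minimum count 10, minimum total 15), scaled by TMM and entered into a quasi-likelihood fit in edgeR 4.0.16 (1 mean per group, all 24 libraries, no covariate), with Benjamini-Hochberg adjustment over 4112 genes and a threshold of 0.05. The test was checked on simulated counts with the same spread for every gene. At day 8 it called 37 of 98 genes (37.8%) with a true log2 change of 1. It called 99 of 99 genes with a true log2 change of 2, and 7 of 3773 unchanged genes. The simulated spread was not that of the members, whose median biological coefficient of variation was 18.7%, so these rates need not hold for them. A count of 0 called members does not by itself exclude small changes. The members' own intervals bound their changes. Of 59 intervals, 55 at day 8 and 52 at day 15 lay within 1 on the log2 scale. DESeq2 1.42.0 was an alternative. Coding regions were compared with blastn 2.17.0+. Intervals of shares are exact (95%, Clopper-Pearson) and cover counting error only, since reads carry no molecular identifiers.

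The members, gene lists and motifs were chosen with earlier results of these data known. Named were members called in any comparison, the 2 highest per kb in each complex, all forms of each isoform set with a count, the 3 smallest p in each direction on each day, and the Sdh genes. Numbers in the titles were checked for pairing. Deviations of same-numbered ligation and sham libraries correlated by 0.152 to 0.304 at day 8 (6 of 6 over 0.1). At day 15 they correlated by -0.0279 to 0.1 (0 of 6). Libraries with different numbers were not compared, and in both day 8 groups libraries 4 to 6 were deeper than libraries 1 to 3. Whether the numbers mark pairs therefore cannot be told from this check.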

Additional observations from a re-analysis of the deposited data

Results flagged for a closer look

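For the 5 complexes, all members together and 22 named members, 112 groups of 6 libraries were searched for a library that stood apart from the others, and 8 were found. Chance alone gives about 5% of groups. The ligation library numbered 3 of day 8 had the lowest share of complex II, 0.0128% of counts against 0.0167% to 0.0180% in the others. The same library had the lowest share of complex V, 0.0911% against 0.117% to 0.130%. In the sham group of day 15, library 1 had 0.115% for complex V against 0.132% to 0.140%.

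Single genes accounted for the other 5. Atp5g2 had 98.8 normalised CPM in sham library 3 of day 15 and 0 to 34.7 in the others. In sham library 1 of day 8, the shallowest, Atp5l had 9.56 normalised CPM against 51.9 to 77.3, and Ndufs3 had 0 against 20.4 to 31.7. Cox6a1 had 30.3 normalised CPM in ligation library 2 of day 8 against 56.2 to 65.9. Sdhd had 71.8 in ligation library 1 of day 8 against 24.2 to 41.5.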

How the results depend on the processing

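Each count of called members was recomputed with other size factors (RLE), no filter on low counts, library sizes without Lars2 and hemoglobin genes, a replicate block, DESeq2 and without each library in turn. At day 15 the count rose from 0 to 1 without the filter (Atp5g2, lower), with the replicate block (Atp5l, log2 fold change 0.77, adjusted p = 0.0411) and with DESeq2 (Atp5l). Of all genes these fits called 2.96% higher and 0.722% lower (no filter), 4.21% and 1.73% (block), and 3.67% and 1.53% (DESeq2). In ligated animals over time it rose from 0 to 2 with DESeq2, which called 2.07% of all genes higher and 1.85% lower. With libraries left out, the counts ran from 0 to 1 at day 8, 0 to 1 at day 15, 0 to 2 over both days and 0 to 1 over time in ligated animals. The fit with 1 at day 8 called 3.44% of all genes higher and 0.332% lower. The fit with 1 at day 15 called 3.43% and 0.74%, and the fit with 1 over time 2.3% and 2.3%. The 2 over both days, Atp5l and Atp5o (adjusted p = 0.0182 and 0.0499, edgeR), came without sham library 6 of day 15. That fit called 6.5% of all genes higher and 2.51% lower. Over both days the count without the filter was also 1, but was Atp5g2 (lower) in place of Atp5l, in a fit that called 4.37% of all genes higher and 1.2% lower. The replicate block changed no other count of calls, and at day 8 it called 0.

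For 16 named genes, 23 comparisons had 415 alternative values, of which 366 kept direction and side of the threshold, 31 were no longer called, 8 became called and 10 changed sign. The sign changes were in 3 comparisons with main values of at most 0.36. Cox6a1 at day 15 had -0.0193 without the filter and -0.00118 without Lars2 and hemoglobin, and ran from -0.0755 to 0.0796 with libraries left out. Cox7a2 at day 8 had -0.00324 in libraries 4 to 6 and ran from -0.0914 to 0.212. Ndufa10 at day 8 had 0.0272 in libraries 1 to 3. The cause was not tested. Ndufs3 at day 15 passed the filter in 7 of 12 fits with a library left out.

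Shares of counts without Lars2 and hemoglobin, in the order ligation day 8, sham day 8, ligation day 15 and sham day 15, were 0.219%, 0.246%, 0.220% and 0.260% for complex I. For complex II they were 0.0376%, 0.0433%, 0.0372% and 0.0451%, and for complex III 0.0819%, 0.0872%, 0.0834% and 0.0928%. For complex IV they were 0.185%, 0.218%, 0.197% and 0.224%, and for complex V 0.267%, 0.301%, 0.281% and 0.306%. They are larger by construction, since the total is smaller, and ligation stayed under sham for each complex on each day. Depth limits the 25 members under the filter, which had no test in the filtered fit.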
